A study of Mus musculus with 16 samples.

Results

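DNA replication genes were followed in mouse induced pluripotent stem cells (iPSCs) and embryoid bodies (EBs). The set is a named list of 39 genes of the replication machinery, and all 39 were found among the 23284 genes of the deposited table and passed the filter on low values. The list covers the MCM helicase (6 genes), origin licensing (6), helicase activation (6), the sliding clamp and its loader (6), the polymerases and primase (8), single-strand binding (3), Okazaki fragment joining (2) and ribonucleotide reductase (2).

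Polyadenylated RNA had been sequenced from 16 libraries. Of these, 12 were from iPSCs reprogrammed from embryonic fibroblasts and kept on feeder cells, and 4 were from EBs, the aggregates in which pluripotent cells differentiate, made from such cells in hanging drops. Every library has the genotype ColA1_miR203; Rosa26rtTA, in which doxycycline can switch on the microRNA miR-203, and every library lists doxycycline for 5 to 7 days. The study followed the transcriptome after a transient rise of miR-203, in iPSCs and later in EBs. A title such as KIXV10 is built from KI or KIX (called the prefix), from D or V (the letter), and from 1, 4, 10 or EB (the stage). What these codes stand for is not given in the labels, and none was read as a treatment or a time. Prefix and stage together make 8 groups of 2 libraries, D and V. The labels do not state whether D and V were separate cultures. The spread between them, on which the p-values of KIX against KI rest, may therefore be technical. Comparisons of stages used the mean of D and V, so their p-values rest on how alike the stage differences were in KI and KIX.

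Replication begins when the origin recognition complex, with Cdc6 and Cdt1, loads the ring of Mcm2 to Mcm7 onto DNA, a step called licensing that geminin (Gmnn) blocks by binding Cdt1. Cdc45 and the GINS complex then join the ring to make the active helicase, RPA coats the exposed single strands, primase and polymerase alpha start new strands, and polymerases delta and epsilon extend them while held by the clamp PCNA. Fen1 and DNA ligase I join the lagging-strand pieces, and ribonucleotide reductase supplies the nucleotides. Many of these genes are transcribed at the start of S phase through E2F factors, and mouse pluripotent cells are known for a cell cycle with short gaps and a large share of cells in S phase.

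Sequences are shown for the induced microRNA, its matches in members of the set and the promoters of members that moved most and least in EBs. The mature miR-203, from the RefSeq table of build GRCm38.p6, has its seed (bases 2 to 8) in capitals.
mmu-miR-203-3p (chr12:112130927-112130948, plus strand): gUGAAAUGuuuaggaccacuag
A run of 7 bases that pairs with this seed was looked for in the longest annotated 3' UTR of each gene (GENCODE annotation, build GRCm38). It occurred in 2 of 39 members (5.13%), Pola1 and Orc2, beside 16.5% of 11982 tested genes with a 3' UTR. The members' 3' UTRs were short, with a median of 488 bases against 1123 over the tested genes. Both windows are 30 bases long with the matched bases in capitals.
Pola1 site (chrX:93304997-93305026, minus strand): cattttaaatactttgtcctaaCATTTCAc
Orc2 site (chr1:58463482-58463511, minus strand): tcagtacagtagaaaataaaaaCATTTCAt
A match describes the letters only and is not a known target site.

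RefSeq promoter windows, from 250 bases before to 50 bases after the annotated start, were on hand for 31 of 39 members. Words bound by E2F factors (TTTCCCGC, TTTGGCGC, TTTGCCGC or TTTCGCGC, on either strand, which may overlap) lay in the windows of 13 of these 31 members (41.9%), beside 2.6% of 27025 genes with an entry and 4.6% of 9734 tested ones. The CCAAT word, on either strand, was in 22 of 31 (71.0%), against 43.3% of the tested genes. The word TTTGAA was in 5 of 31 (16.1%), against 14.0%. The windows below belong to the 3 members with the largest fall in EBs and to the member with the least change, from the RefSeq table of build GRCm38.p6, and capitals mark the E2F words and the CCAAT word on either strand. Pold2 has 2 entries, of which the first is given.
Rrm2 promoter (chr12:24708004-24708303, plus strand): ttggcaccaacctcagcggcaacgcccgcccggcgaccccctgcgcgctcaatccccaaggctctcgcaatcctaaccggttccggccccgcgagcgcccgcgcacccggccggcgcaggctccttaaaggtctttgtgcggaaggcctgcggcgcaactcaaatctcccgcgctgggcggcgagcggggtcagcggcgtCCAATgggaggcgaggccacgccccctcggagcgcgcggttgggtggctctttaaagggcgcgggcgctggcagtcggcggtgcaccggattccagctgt
Pold2 promoter (chr11:5878207-5878506, minus strand): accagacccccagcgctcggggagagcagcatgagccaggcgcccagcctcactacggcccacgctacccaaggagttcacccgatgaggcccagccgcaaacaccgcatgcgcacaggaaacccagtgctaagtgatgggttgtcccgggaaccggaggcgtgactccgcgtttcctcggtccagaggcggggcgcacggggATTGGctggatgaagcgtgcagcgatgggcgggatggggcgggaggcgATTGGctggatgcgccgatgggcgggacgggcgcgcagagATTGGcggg
Mcm5 promoter (chr8:75109259-75109558, plus strand): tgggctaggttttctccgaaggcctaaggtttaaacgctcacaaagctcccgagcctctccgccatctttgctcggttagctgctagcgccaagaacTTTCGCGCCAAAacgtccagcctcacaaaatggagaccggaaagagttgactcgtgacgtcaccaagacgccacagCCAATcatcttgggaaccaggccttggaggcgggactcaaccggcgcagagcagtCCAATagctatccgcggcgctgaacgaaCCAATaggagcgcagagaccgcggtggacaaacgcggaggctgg
Pola2 promoter (chr19:5964157-5964456, minus strand): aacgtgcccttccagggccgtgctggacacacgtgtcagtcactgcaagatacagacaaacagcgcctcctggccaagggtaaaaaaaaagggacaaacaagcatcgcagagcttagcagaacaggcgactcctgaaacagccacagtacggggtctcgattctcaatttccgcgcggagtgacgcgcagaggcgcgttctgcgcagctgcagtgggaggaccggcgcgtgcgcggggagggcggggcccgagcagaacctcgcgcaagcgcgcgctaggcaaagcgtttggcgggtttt
In Mcm5 a pair of overlapping E2F words, TTTCGCGC on the plus strand of the gene and TTTGGCGC on the other, began 153 and 149 bases before the start. Rrm2 held a single CCAAT word, 50 bases before the start, and Pola2 held neither kind of word. Only exact words were counted. A run that differs from TTTGGCGC in its last base alone lies near the end of the Pola2 window. The members with an E2F word had a median log2 difference of -0.91 in EBs (12 of 13 called lower). Those without one had a median of -0.62 (17 of 18 called lower), and of all tested genes 33.1% were called lower. The ranges overlapped widely, from -1.35 to -0.26 and from -1.75 to -0.12.

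Values are FPKM (fragments relative to transcript length and to the library) as the authors made them, so levels of different genes can be set side by side. The sequencing depth is unknown. Total FPKM ran from 612598 to 724350 per library, and the 39 members took 0.236% to 0.467% of it. Mir203 itself, the gene of the induced microRNA, was listed at 0 in all KI libraries of numbers 1 and 4 and at 1868 and 1969 FPKM in the KIX libraries of number 1 and 2254 and 1728 FPKM in those of number 4. Number 10 libraries listed it at 0 throughout, while among EB libraries KIVEB had 90.1 FPKM, KIXDEB 212 FPKM and KIDEB and KIXVEB 0. With the depth unknown, how many fragments these Mir203 values stand for is unknown too. Fibroblast and pluripotency markers were above 0 in every group. D and V libraries of a group were close over the members, with an SD of the log2 difference of 0.056 to 0.143, against 0.109 to 0.207 where KI was set against KIX within a letter and stage.

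In the 12 iPSC libraries the members spanned a wide range of levels. The clamp gene Pcna was highest, at 284 ± 33.2 FPKM (SD, n = 12), followed by Mcm7 at 199 ± 14.3, Rrm2 at 194 ± 22.6 and Mcm2 at 177 ± 17.5, and these last lay within each other's spread. The GINS subunit Gins3 was lowest, at 6.41 ± 0.975 FPKM, below the loading factor Cdc6 at 16.3 ± 1.31. Subunits of a single complex were not level. Within the MCM ring, Mcm7 was the highest and Mcm4 the lowest in each of the 16 libraries, 2.24 to 2.79 times apart. Among the GINS genes, Gins2 averaged 57.1 ± 10.7 FPKM, Gins4 51.0 ± 5.26 and Gins1 37.5 ± 4.24. The lowest value of any member in any library was 4.32 FPKM.

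**Figure D1:**
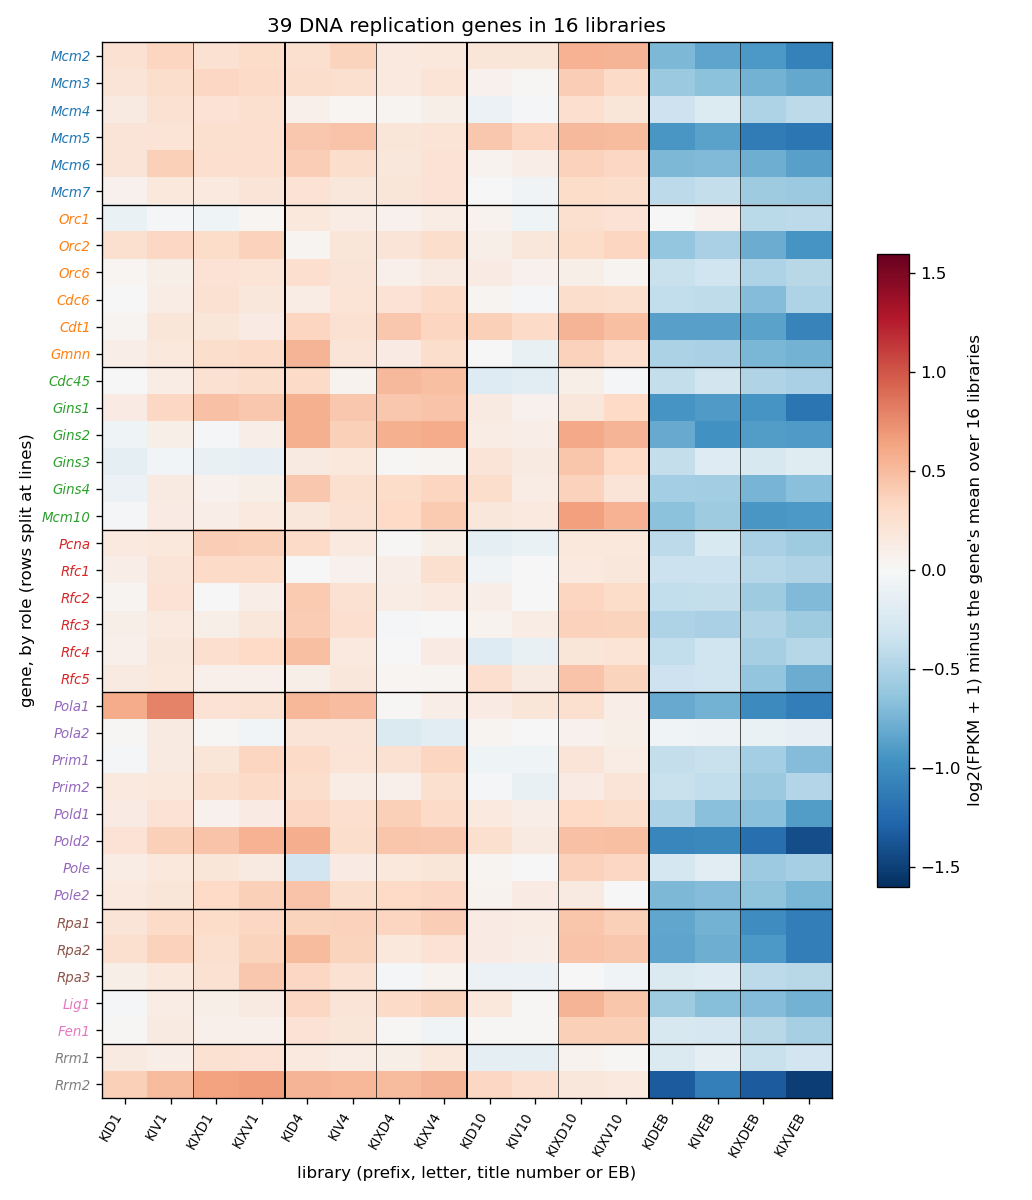
Each row is a replication gene and each column a library; colour is log2(FPKM + 1) minus the gene's mean over the 16 libraries, and lines separate roles, groups and stages. The 4 EB columns are lower for nearly every gene, and within number 10 the KIX columns are higher than the KI columns for most genes.

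EBs were compared with iPSCs to ask how the set stands after differentiation. All 39 members had lower estimates in EBs, and 37 fell past the threshold (limma, Benjamini-Hochberg adjusted p under 0.05). Among all 13895 tested genes 33.1% were called lower. The median log2 difference of the members was -0.69, against 0.02 over all tested genes. In 36 of 39 members every EB library lay below every iPSC library, as did 27.5% of the tested genes, and the exceptions were Orc1, Pola2 and Pole. In bulk RNA, fewer replicating cells and less of these transcripts per cell cannot be told apart.

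Ribonucleotide reductase held both a large and a small fall. Rrm2, the small subunit whose supply limits the enzyme in S phase, ranged over the iPSC libraries from 159 to 226 FPKM with a median of 203, and stood at 56.0, 66.3, 56.1 and 49.4 FPKM in KIDEB, KIVEB, KIXDEB and KIXVEB. Every EB library lay far under the lowest iPSC library. Its log2 difference was -1.75 ± 0.10 (SE, adjusted p = 8.11e-05), a 3.37-fold fall. Rrm1, the large subunit, had a lowest, median and highest iPSC value of 43.9, 53.0 and 58.2 FPKM and EB values of 41.6, 43.6, 38.0 and 39.2 FPKM. Those groups came close, with the highest EB library just under the lowest iPSC library, and the log2 difference was -0.35 ± 0.09 (adjusted p = 0.0145).

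All 6 MCM helicase genes fell. Mcm5 led them: the iPSC libraries ran from 137 to 172 FPKM with a median of 149, and the EB libraries stood at 62.4, 65.9, 54.9 and 53.5 FPKM, with no overlap. Its log2 difference was -1.35 ± 0.10 (adjusted p = 0.000201). Mcm2 fell to 43.5% of its iPSC mean, Mcm6 to 48.7%, Mcm3 to 51.7%, Mcm7 to 63.5% and Mcm4 to 70.9%. Mcm4, already the scarcest of the 6, thus fell least, by -0.49 ± 0.10.

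Of the 6 origin licensing genes 5 fell. Cdt1, the loading factor, ran from 91.6 to 130.0 FPKM in iPSCs with a median of 112 and stood at 48.1, 48.1, 48.6 and 41.7 FPKM in the EB libraries. Its log2 difference was -1.22 ± 0.08 (adjusted p = 0.000126). Geminin, its inhibitor, fell by 0.84 on the log2 scale, Orc2 by 0.96, Cdc6 by 0.66 and Orc6 by 0.54. Orc1, the largest subunit of the origin recognition complex, was the exception: it stood at 22.7 to 29.5 FPKM in iPSCs and at 24.3, 25.8, 17.9 and 18.1 FPKM in EBs. The KI EB libraries lay within the iPSC range and the KIX ones below it, and the overall difference did not pass (-0.26 ± 0.14, adjusted p = 0.148).

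Helicase activation genes fell without exception but by unequal amounts. Gins1 went from an iPSC median of 38.6 FPKM (30.8 to 44.1) to 14.8, 15.3, 14.8 and 12.6 FPKM in EBs, a log2 difference of -1.32 ± 0.10 (adjusted p = 0.000165). Its partners in the 4-part GINS complex fell by 1.19 (Gins2), 0.84 (Gins4) and 0.34 (Gins3). Mcm10, which helps to start the helicase, fell by 1.02, and Cdc45 by 0.56.

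The clamp and its loader moved within a narrow band. Pcna ranged from 230.0 to 337 FPKM over the iPSC libraries, with a median of 286, and stood at 191, 215, 177 and 172 FPKM in EBs, which did not reach the iPSC range. Its log2 difference was -0.58 ± 0.13 (adjusted p = 0.00924). The 5 loader genes fell by between 0.54 (Rfc1) and 0.69 (Rfc5) on the log2 scale.

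Among polymerases and primase 7 of 8 fell. Pold2, the accessory subunit of polymerase delta, had a lowest, median and highest iPSC value of 59.9, 73.6 and 81.5 FPKM and stood at 25.7, 26.0, 22.9 and 19.7 FPKM in EBs. Its log2 difference was -1.57 ± 0.12 (adjusted p = 0.000192), larger than that of its catalytic partner Pold1 (-0.91 ± 0.10). The subunits of polymerase alpha were further apart. Pola1, the catalytic subunit, ran from 20.4 to 35.7 FPKM in iPSCs and stood at 11.1, 11.5, 9.40 and 8.86 FPKM in EBs, a log2 difference of -1.23 ± 0.12 (adjusted p = 0.000358). Pola2, its regulatory subunit, stood at 35.6 to 48.5 FPKM in iPSCs and at 40.0, 39.4, 38.9 and 38.2 FPKM in EBs, inside the iPSC range, and did not pass (-0.12 ± 0.11, adjusted p = 0.338). The primase genes Prim1 and Prim2 fell by 0.66 and 0.60, and Pole2 and Pole, of polymerase epsilon, by 0.92 and 0.52. Whether these subunits differ from each other in their falls was not tested.

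All 3 single-strand binding genes fell, Rpa1 and Rpa2 to 42.2% and 42.3% of their iPSC means and the small subunit Rpa3 to 73.1%. The DNA ligase gene Lig1 fell by 0.90 and the flap nuclease gene Fen1 by 0.50 on the log2 scale.

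**Figure D2:**
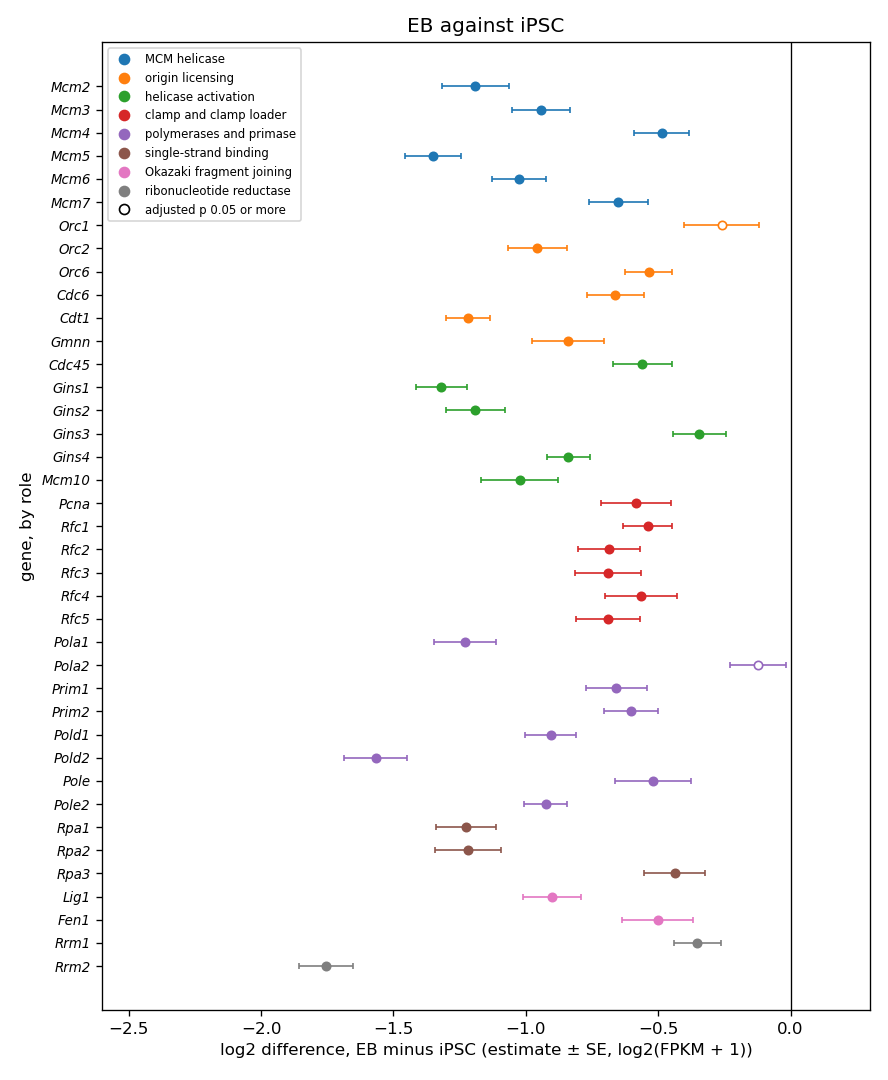
The x axis is the log2 difference of EB minus iPSC on log2(FPKM + 1), with points for estimates, bars for SE and colours for roles; open points did not pass. All 39 points lie below 0, from Rrm2 at -1.75 to Pola2 at -0.12, and the 2 open points are Orc1 and Pola2.

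Other proliferation genes also fell in EBs, with exceptions. Of 30 tested other replication factors 16 fell and 2 rose, led by Tipin (-1.45), of the fork protection complex, Chtf18 (-1.22), of an alternative clamp loader, and the helicase Recql4 (-0.87). In nucleotide supply 9 of 12 fell, led by Dctd (-1.66), Dut (-1.50) and Cad (-1.17), and in replication-coupled chromatin assembly 6 of 9 fell, led by Uhrf1 (-1.41), Nasp (-1.06) and Dnmt1 (-0.76). Of 16 mitosis genes 12 fell and 1 rose, with Top2a at -0.96, Bub1b at -0.90 and Birc5 at -0.87. Not all of that list went down: Mki67 stood at 23.8, 26.9, 23.0 and 28.1 FPKM in KIDEB, KIVEB, KIXDEB and KIXVEB. Its iPSC libraries ran from 15.3 to 22.7 FPKM. Of 20 genes of E2F, RB and the G1/S cyclins 10 fell and 1 rose, the largest falls being those of the cyclins Ccnd1 (-3.89), Ccne1 (-2.25) and Ccnd2 (-2.16). The 7 cyclin-dependent kinase inhibitors divided, with 3 up and 3 down: Cdkn1b (2.00) and Cdkn1c (1.84) rose and Cdkn2a (-2.04) fell.

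Markers of cell types moved with the same comparison. Of 10 pluripotency markers 9 fell, led by Nanog (-2.46), and their summed level was 3634 to 5290 FPKM over iPSC libraries and 983 to 1862 FPKM over EB libraries. All 10 fibroblast markers, of the feeder type, fell, led by S100a4 (-5.67), from a summed 1143 to 2566 FPKM to 24.1 to 489 FPKM. In the other direction, 9 of 10 endoderm and liver-type markers rose, led by Afp (9.70), as did 8 of 8 cardiac muscle markers, led by Actc1 (5.13), and 5 of 7 tested blood and endothelium markers, with 1 down. The part of these shifts in the fall of the replication genes was not tested.

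KIX was compared with KI at each stage, with D and V as the 2 replicates of each side. At number 1 a single member was called: Pola1 stood at 30.8 and 35.7 FPKM in KID1 and KIV1 and at 23.8 and 24.0 FPKM in KIXD1 and KIXV1. The groups did not overlap, and in 27.0% of tested genes both KIX libraries likewise lay below both KI libraries. The log2 difference was -0.46 ± 0.07 (adjusted p = 0.0118 by limma), on a background of 0.641% of tested genes called lower. The call was lost when KIV1, KIXD1 or KIXV1 was left out (adjusted p from 0.0791 to 0.116). The other 38 members were not called. Of these, 10 had a positive difference at an unadjusted p under 0.05. The share of all tested genes at that threshold is not given here, so this count is not read as a shift.

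At number 4, 6 members fell and 1 rose in KIX, against backgrounds of 8.29% called lower and 11.3% called higher. Both subunits of polymerase alpha were among them. Pola1 stood at 29.5 and 28.9 FPKM in KID4 and KIV4 and at 20.4 and 21.9 FPKM in KIXD4 and KIXV4, a log2 difference of -0.45 ± 0.07 (adjusted p = 0.00248). Pola2 stood at 48.5 and 48.2 FPKM in KI and at 35.6 and 37.0 FPKM in KIX, a difference of -0.40 ± 0.05 (adjusted p = 0.000388). In neither gene did the sides overlap, and in 26.0% of tested genes both KIX libraries likewise lay below both KI libraries. Rfc3 of the clamp loader fell by 0.35, Rpa3 by 0.28, and Mcm5 and Fen1 by 0.24 each. Cdc45 rose, from 33.1 and 27.7 FPKM in KI to 38.7 and 37.5 FPKM in KIX (0.32 ± 0.08, adjusted p = 0.0151). Over the set the median log2 difference was -0.05, and without KIV4 the count of members called was 12. KID4 stood apart from KIV4 in several members, with Pole at 14.0 against 19.2 FPKM and Gmnn at 108 against 84.9 FPKM. With FPKM rescaled to the same total in each library, the split was 4 up and 4 down. Under that rescaling the share of all called genes that were higher in KIX grew as well, as given in the last section.

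At number 10 the called members were all higher in KIX: 25 of 39 rose and none fell, against 9.94% of tested genes called higher, with a median log2 difference of 0.25 against 0.00 over all tested genes. In 34 members both KIX libraries lay above both KI libraries, as they did in 32.8% of tested genes. Gins2 rose most, from 49.3 and 49.2 FPKM in KID10 and KIV10 to 69.6 and 66.7 FPKM in KIXD10 and KIXV10 (0.46 ± 0.08, adjusted p = 0.00379). Mcm10 followed, from 41.4 and 40.7 FPKM to 57.9 and 54.0 FPKM (0.44 ± 0.06, adjusted p = 0.00215). The ligase gene Lig1 stood at 75.4 and 67.8 FPKM in KI and at 98.4 and 91.7 FPKM in KIX (0.41 ± 0.07, adjusted p = 0.00434).

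By role, 5 of 6 MCM genes rose, from Mcm2 at 0.36 (164.5 and 164.7 FPKM in KI, 212 and 210.2 FPKM in KIX) to Mcm6 at 0.27, and Mcm5 missed the threshold (0.13 ± 0.04, adjusted p = 0.0585). All 6 genes of the clamp and its loader rose, by 0.20 to 0.37. Fen1 stood at 51.8 and 52.1 FPKM in KI and at 67.3 FPKM in both KIX libraries, a difference of 0.37 ± 0.05 (adjusted p = 0.00192). Of the licensing genes Gmnn, Cdc6 and Orc1 rose, and of the polymerase and primase genes Pole, Prim2 and Prim1. Pola1 (0.02), Pola2 (0.06), Pole2 (-0.02), Orc6 (-0.03) and Rrm2 (-0.13) were near or below 0 and not called. For Rrm2 both KIX libraries, at 162 and 159 FPKM, lay below both KI libraries, at 179 and 172 FPKM.

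The calls at number 10 changed with scaling, with single libraries and with the fibroblast score, the mean log2 level of 10 fibroblast markers. Of the 25 called members, 17 kept their call with FPKM rescaled to the same total and 19 with no filter. Under that rescaling the share of all called genes that were higher in KIX fell, as given in the last section. The count was lower without KIV10, KIXD10 or KIXV10. Each of those fits leaves 1 library in a group, and the share of all tested genes called in them is not given. Fibroblast markers stood at a summed 2205 to 2566 FPKM in the KI libraries of number 10 and at 1469 to 1574 FPKM in the KIX libraries, and all but 1 of the 10 markers missed the threshold (S100a4, -0.73, passed). Pluripotency markers summed to 3634 to 4578 FPKM in KI and 4515 to 4905 FPKM in KIX, where Sall4 (0.21) was called. The fibroblast score was then used as a covariate in the iPSC libraries, an alternative added after the data were seen. By limma, 0 of the 39 members were called at number 10 (31 of 13080 tested genes). At an unadjusted p under 0.05, 11 were higher and 2 lower. The share of all genes at that threshold is not given here. The estimates of the 25 members stayed above 0, between 0.03 and 0.41. At number 4, where the summed fibroblast markers were 1143 to 1325 FPKM in KI and 1205 to 1224 FPKM in KIX, all 7 called members passed with that covariate too.

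Lists of other proliferation genes held more genes called higher than lower in KIX at number 10, apart from the kinase inhibitors. Of 30 tested other replication factors 12 rose and 1 fell, led by Chtf18 (0.45), Pold4 (-0.44) and Recql4 (0.41). In nucleotide supply 8 of 12 rose, led by Tk1 (0.49), in chromatin assembly 7 of 9, led by Uhrf1 (0.49), and in mitosis 9 of 16, led by Bub1b (0.42). Among the kinase inhibitors 3 of 7 fell, Cdkn2a (-0.70), Cdkn2b (-0.68) and Cdkn1a (-0.67). The E2F and cyclin list divided, with E2f2 (0.55) and Ccne1 (0.33) among 4 that rose and Ccnd1 (-0.49) among 2 that fell.

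**Figure D3:**
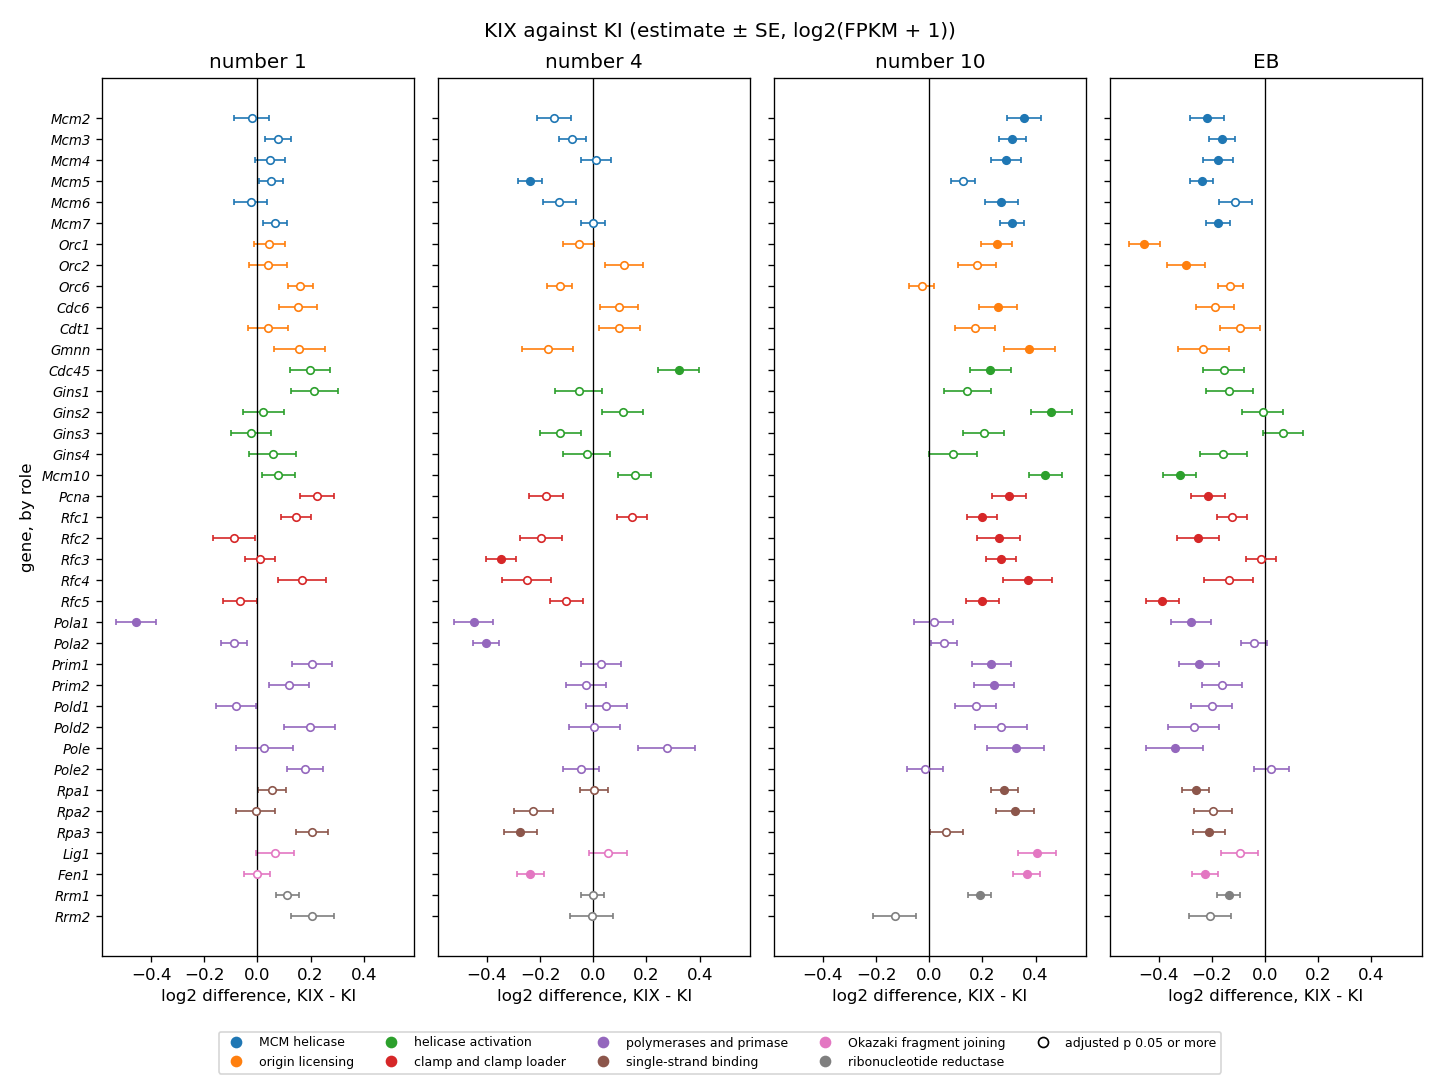
Panels give the log2 difference of KIX minus KI on log2(FPKM + 1) at numbers 1, 4 and 10 and in EBs, with points for estimates, bars for SE, colours for roles and filled points for genes that passed. At number 10 the 25 filled points lie right of 0, and in EBs the 18 filled points lie left of 0; Pola1 is filled on the left in every panel but that of number 10.

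In EBs 18 of 39 members were lower in KIX and none was higher, against 15.0% of tested genes called lower, and the median log2 difference was -0.19, against -0.03 over all tested genes. In 33 members both KIX libraries lay below both KI libraries, as in 36.7% of tested genes. Orc1 led, with 24.3 and 25.8 FPKM in KIDEB and KIVEB and 17.9 and 18.1 FPKM in KIXDEB and KIXVEB (-0.46 ± 0.06, adjusted p = 0.000381). Rfc5 stood at 58.3 and 58.8 FPKM in KI and at 47.2 and 42.1 FPKM in KIX (-0.39 ± 0.06, adjusted p = 0.00153). Pole (-0.34), Mcm10 (-0.32) and Orc2 (-0.30) came next, and 5 of 6 MCM genes fell, by 0.16 to 0.24. Gins2 (-0.01), Rfc3 (-0.02), Pole2 (0.02) and Gins3 (0.07) were closest to 0 or above it, and none of these was called.

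This count too depended on libraries and scaling. The count was lower without KIDEB, KIVEB or KIXVEB, in fits that leave 1 library in a group. It was 10 after quantile normalization and 3 with FPKM rescaled to the same total. The shares of all tested genes called lower in these fits are not given here. Under that rescaling the share of all called genes that were higher in KIX grew too, as given in the last section. Cell type markers differed between the KI and KIX EB libraries. All 10 pluripotency markers were lower in KIX EBs, led by Tdgf1 (-0.85) and Pou5f1 (-0.75), with a summed level of 983 to 1318 FPKM against 1861 to 1862 FPKM. Higher in KIX were 7 of 10 fibroblast markers, led by Col1a1 (3.89; summed 160 to 489 against 24.1 to 47.0 FPKM), 7 of 8 cardiac markers, led by Myh7 (1.93; 194 to 778 against 108 to 124 FPKM), and 6 of 10 endoderm and liver-type markers, led by Alb (2.93; 3183 to 3551 against 1899 to 1922 FPKM). Of 7 tested blood and endothelium markers, 4 were higher and 1 lower (128 to 155 against 121 to 132 FPKM). Their part in the lower replication genes was not tested. Of the mitosis list 5 of 16 were lower, led by Bub1 (-0.35), and of other replication factors 8 of 30, led by Rif1 (-0.34).

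**Figure D4:**
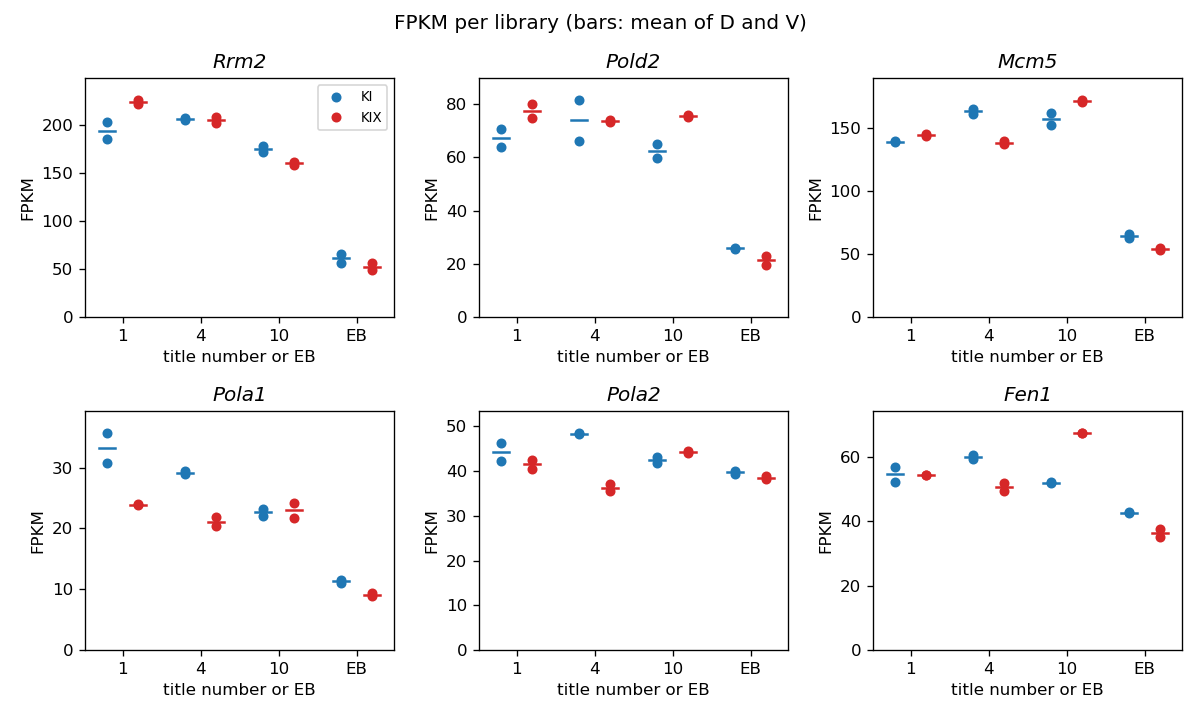
FPKM of 6 replication genes in each of the 16 libraries (points) by title number or EB, with bars at the mean of D and V, KI in blue and KIX in red. Rrm2, Pold2 and Mcm5 are far lower in EBs, Pola2 is not, and Pola1 is lower in KIX than in KI at numbers 1 and 4 (23.8 to 24.0 against 30.8 to 35.7 FPKM at number 1) but not at number 10.

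Whether the KIX difference itself changed between stages was tested in the same fit. From number 1 to 4 it became more negative for 6 members (Mcm5, Orc6, Pcna, Rfc3, Pola2 and Rpa3), on a background of 2.19% called lower. That count was 0 without KID1, KIXV1 or KIXD4, 1 to 3 without KIV1, KIXD1, KID4, KIXV4, KIXD10, KIXV10 or KIVEB, and 10 without KIV4. It was 1 with FPKM rescaled to the same total and 0 by limma with the fibroblast score as a covariate. With that covariate the 6 estimates stayed below 0, from -0.44 to -0.25. In that fit 1 member was higher and 9 were lower at an unadjusted p under 0.05, with no share of all genes given. From number 4 to 10 it rose for 24 members and fell for none, against 11.4% called higher, with all 6 MCM genes, all 3 RPA genes, Fen1, Lig1, Pola1 and Pola2 among them. The largest such changes were those of Rfc3 (0.62), Rfc4 (0.62) and Fen1 (0.60). That contrast is the number 10 difference minus the number 4 difference, so it restates their values and is no separate evidence. The count was 12 without KIXD4 or without KIXD10 and 11 with rescaled FPKM. With the fibroblast score as a covariate 3 members stayed called, Mcm2, Rfc3 and Fen1, and all 24 estimates stayed above 0, from 0.15 to 0.54. In EBs against the mean of the iPSC numbers the KIX difference was lower for 23 members, against 18.2% of tested genes. Pole (-0.55), Orc1 (-0.54) and Mcm10 (-0.54) led. Of these 23, 13 kept their call with FPKM rescaled to the same total. This contrast too is built from differences given above and is no separate evidence.

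Rescaling FPKM to the same total moved the median of all tested genes by 0.15 for the change from number 1 to 4 and by -0.17 for the change from 4 to 10. The members' medians under it were 0.04 and 0.14, against -0.11 and 0.30 as deposited. The members called went from 6 to 1 in the first contrast, where 0.972% of tested genes were called lower, and from 24 to 11 in the second, where 5.07% were called higher.

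Pola1 was the one member called lower in KIX at number 1, at number 4 and in EBs (-0.28 ± 0.07, adjusted p = 0.0181 by limma). At number 10 it was level (22.1 and 23.2 FPKM in KI, 24.2 and 21.7 FPKM in KIX). The KIX libraries of numbers 1, 4 and 10 all lay between 20.4 and 24.2 FPKM. It was the KI libraries that differed, at 30.8 and 35.7 FPKM at number 1 and 29.5 and 28.9 FPKM at number 4. The change within KI was not tested. The Pola1 3' UTR holds the seed match printed above, and Mir203 was listed above 0 in both KIX libraries at numbers 1 and 4 and in neither at number 10. In EBs, where Pola1 was also lower in both KIX libraries, Mir203 was above 0 in KIXDEB and KIVEB and at 0 in KIXVEB and KIDEB, so there it did not follow the prefix. Orc2, which holds the other match, was not called at numbers 1 (0.04) or 4 (0.12) and fell in EBs (-0.30). Over all tested genes the 1973 with a match had a median KIX difference of -0.02 at number 1 and 0.08 at number 4, and the 10009 without a match had 0.00 and 0.02. A role of miR-203 in the Pola1 values was not tested.

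Comparisons between the title numbers, with D and V averaged and KI and KIX as the units, called none of the 39 members by limma. For number 4 against 1, 0.0936% of tested genes were called in either direction, for number 10 against 4 1.09%, and for number 10 against 1 2.21%. At an unadjusted p under 0.05, 2 members were higher in number 4 than in 1 and 3 were lower in number 10 than in 4. In number 10 against 1, 2 were higher and 1 lower at that threshold. The shares of all tested genes at it are not given here, so no trend is read from these counts. Gins2 had the largest estimate between numbers 4 and 1 (0.51 ± 0.14, adjusted p = 0.283): it stood at 43.4, 48.4, 44.4 and 48.8 FPKM at number 1 and at 67.7, 59.6, 68.0 and 69.3 FPKM at number 4, without overlap. Treating D and V as replicates instead gave 13 members for number 4 against 1, 16 for 10 against 4 and 22 for 10 against 1. Of all tested genes 38.6%, 40.9% and 51.9% were called in that fit, so the members' shares lay near the background.

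D and V did not differ by limma: 0.00% of tested genes and none of the members were called, while 764 genes and 0 members passed an unadjusted p of 0.05. Deviations of D from V over the set had a median of -0.01 on the log2 scale.

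**Figure D5:**
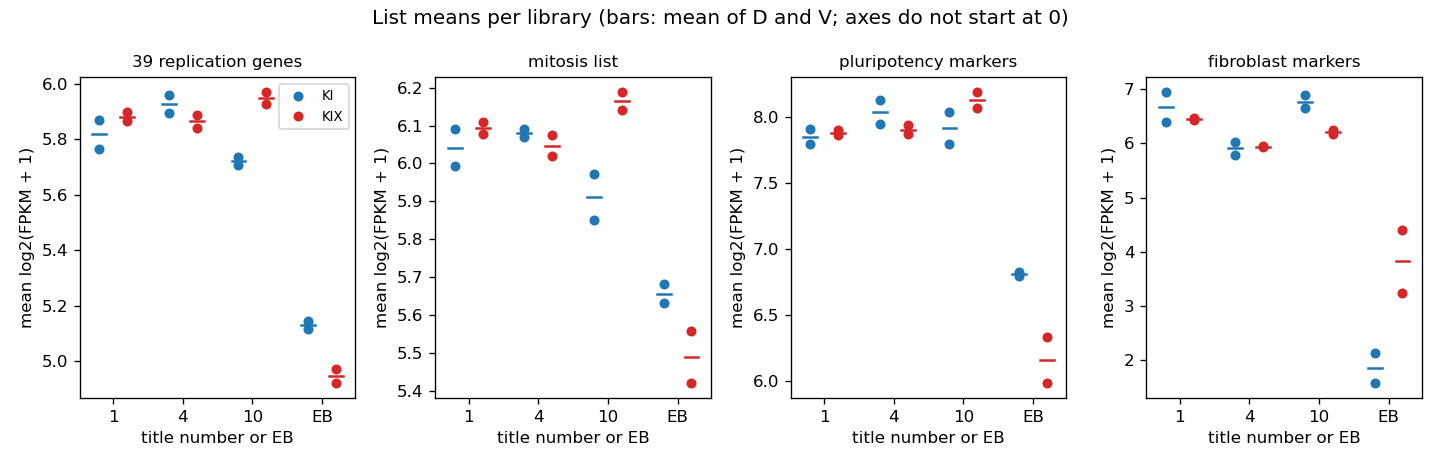
Mean log2(FPKM + 1) of the 39 replication genes and of the mitosis, pluripotency and fibroblast lists in each library (points; bars at the mean of D and V; axes do not start at 0), KI in blue and KIX in red. The replication mean at number 10 is 5.72 ± 0.021 (SD, n = 2) in KI and 5.95 ± 0.030 in KIX, where the fibroblast mean is 6.77 ± 0.165 and 6.21 ± 0.044.

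Over the 8 groups the mean log2 level of the set was highest in KIX at number 10 (5.95 ± 0.030, SD, n = 2), then KI at number 4 (5.93 ± 0.046), KIX at number 1 (5.88 ± 0.023), KIX at number 4 (5.87 ± 0.033), KI at number 1 (5.82 ± 0.073) and KI at number 10 (5.72 ± 0.021). Libraries of neighbouring groups in that order overlapped, except that both libraries of KI at number 10 lay below both of KI at number 1. EBs lay lower still, KI EBs at 5.13 ± 0.019 and KIX EBs at 4.95 ± 0.039, without overlap between them.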

How the data were processed

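Per the submitters' processing notes, Cufflinks 2.2.1, TopHat2 2.0.10, SAMtools 0.1.19, Bowtie 1.0.0 and FastQC were used, with build GRCm38 (mm10). Settings and annotation version are not given in the sources used here. Deposited by the authors were FPKM values for 23284 genes in 16 libraries. Reads shared by overlapping or near-identical genes can be split unevenly in such estimates. Libraries were strand-marked, per the labels' protocols.

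Only 45.5% of 17274 low values lay within 0.1 of a whole multiple of a gene's smallest value, so whole reads were not recovered, depth is unknown and no count model was used. No 2 libraries held identical values.

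A gene entered the tests if 2 or more libraries reached 1 FPKM, which 13895 did. Tests were run on log2(FPKM + 1) in R 4.3.3 by limma 3.58.1, two-sided, with a trended empirical Bayes step, and p-values were adjusted over all of these genes by the Benjamini-Hochberg method, with calls at 0.05. Fold changes on this scale understate those of low genes. KIX against KI, and its changes between stages, came from 8 group means with D and V as replicates. Comparisons of numbers and of EBs with iPSCs came from the 8 means of D and V, with prefix as a term, since the 4 libraries of a stage are not independent. D against V was fitted with the 8 groups as a block. The fits were tested on simulated data.

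The members, gene lists and comparisons were chosen with earlier results of these data known. All members may be named, and of other lists up to 3 called genes with the largest change per comparison. Alternatives were a pseudocount of 0.1, no filter, quantile normalization, rescaling to the same total (as in TPM), leaving out each library, iPSC libraries alone, the letter as a block, other ways of grouping libraries and the fibroblast score as a covariate. The covariate in comparisons of KIX with KI was added after the data were seen.

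Promoter windows and the microRNA came from RefSeq tables (GRCm38.p6), and 3' UTRs from GENCODE M21. Words were searched as exact letters. Figures were drawn with matplotlib 3.10.9.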

Additional observations from a re-analysis of the deposited data

Results flagged for a closer look

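The results below stand out because the test of a change in the KIX difference between stages passed for them. Values are changes of the log2 difference of KIX minus KI, from limma. From number 1 to number 4 the difference became more negative for Mcm5 (-0.29), the origin recognition subunit Orc6 (-0.29), Pcna (-0.40), the clamp loader subunit Rfc3 (-0.36), Pola2 (-0.32) and Rpa3 (-0.48). Of all tested genes 2.19% were called lower in this contrast. With the fibroblast score as a covariate none of these 6 was called, and all 6 estimates stayed below 0, from -0.44 to -0.25.

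From number 4 to number 10 the change was positive for 24 members, against 11.4% of tested genes called higher. Fibroblast markers moved with this contrast: their summed level was 1143 to 1325 FPKM in KI and 1205 to 1224 FPKM in KIX at number 4, and 2205 to 2566 FPKM and 1469 to 1574 FPKM at number 10. With the fibroblast score as a covariate 3 of the 24 stayed called, and all 24 estimates stayed above 0, from 0.15 to 0.54. The share of all tested genes called in that fit is not given here. Without the covariate, the change in the MCM helicase was 0.50 for Mcm2, 0.39 for Mcm3, 0.28 for Mcm4, 0.37 for Mcm5, 0.40 for Mcm6 and 0.31 for Mcm7. In licensing it was 0.31 for Orc1 and 0.55 for Gmnn. In helicase activation it was 0.35 for Gins2, 0.33 for Gins3 and 0.28 for Mcm10. In the clamp and its loader it was 0.48 for Pcna, 0.46 for Rfc2, 0.62 for Rfc3, 0.62 for Rfc4 and 0.30 for Rfc5. Pola1 changed by 0.47 and Pola2 by 0.46, Rpa1 by 0.28, Rpa2 by 0.55 and Rpa3 by 0.34, and Lig1 by 0.35, Fen1 by 0.60 and Rrm1 by 0.19.

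In EBs, against the mean of the iPSC numbers, the KIX difference was more negative in the MCM genes Mcm2 (-0.28), Mcm3 (-0.27), Mcm4 (-0.29), Mcm5 (-0.22) and Mcm7 (-0.30). It was so in the licensing genes Orc1 (-0.54), Orc2 (-0.41), Cdc6 (-0.36) and Gmnn (-0.35), and in Cdc45 (-0.41) and Mcm10 (-0.54). It was so in Pcna (-0.33), Rfc1 (-0.29) and Rfc5 (-0.40), and in Prim1 (-0.41), Prim2 (-0.27), Pold2 (-0.43) and Pole (-0.55). The rest were Rpa1 (-0.38), Rpa3 (-0.21), Lig1 (-0.27), Fen1 (-0.27) and Rrm1 (-0.24). Cell type markers moved with the same contrast: 7 of 10 fibroblast markers were higher, and 9 of 10 pluripotency markers lower.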

How the results depend on the processing

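No called member changed direction under any alternative run, and of 942 values other than those leaving out a library 801 kept their call. EB against iPSC gave 37 to 39 members under each alternative. With FPKM rescaled to the same total, the count of members called was 3 for KIX against KI in EBs and 1 for the change from number 1 to 4. It was 11 for the change from 4 to 10 and 14 (13 lower) for the KIX difference in EBs against iPSCs. At number 10, 17 of the 25 called members kept their call. Of all genes called, the share higher in KIX went from 57.7% to 78.4% at number 4, from 40.5% to 21.9% at number 10, from 45.3% to 66.3% in EBs and from 70.9% to 59.6% at number 1. For the changes it went from 53.6% to 86.2% (1 to 4), from 40.0% to 17.0% (4 to 10) and from 45.0% to 63.8% (EBs), and for number 10 against 1 from 58.0% to 47.7%. Quantile normalization gave 10 members in EBs, and 51.5% of called genes higher for the change from 4 to 10. The fibroblast covariate, chosen after seeing the data, left 0 members at number 10 by limma, 0 for the change from 1 to 4 (1 higher and 9 lower at an unadjusted p under 0.05) and 3 for that from 4 to 10, and the planned one gave 5 for number 10 against 1 (23.5% of all genes called). Between numbers, where the main counts were 0, means by letter gave 2 (4 against 1), 2 (10 against 4) and 4 (10 against 1), with 8.53%, 11.1% and 25.4% of all genes called. Means by prefix gave 13, 16 and 22, with 38.6%, 40.9% and 51.9% of all genes, and the random block gave 2 for 10 against 1, with 13.2%. The causes were not tested.

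Leaving out each library gave ranges of members called of 0 to 1 (KIX at number 1), 5 to 12 (number 4), 7 to 27 (number 10) and 6 to 22 (EBs). For the changes the ranges were 0 to 10 (1 to 4), 12 to 24 (4 to 10, with 12 without KIXD4 or KIXD10) and 18 to 27 (EBs). The change from 1 to 4 was 0 without KID1, KIXV1 or KIXD4, 1 without KIXD1, KIXV4, KIXD10 or KIXV10, 2 without KIV1 or KID4, 3 without KIVEB and 10 without KIV4. A lone library was then assumed to vary like the other groups. Shares of all tested genes called in these fits are not given. The counts therefore cannot tell whether members lost more calls than other genes.

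Letters did not pair the libraries: the differences of D and V correlated between groups from -0.187 to 0.206 over 28 pairs. With the letter as a replicate block, 23 members were called at number 10 and 18 in EBs, and no count moved by over 1.5 times. Depth limits could not be given, since FPKM carries none.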
